A study of Mus musculus with 7 samples.

Results

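Perforin and the granzymes are the load of the granules with which CD8 T cells kill. The genes described here are Prf1 and the 9 granzyme genes Gzma, Gzmb, Gzmc, Gzmd, Gzme, Gzmf, Gzmg, Gzmk and Gzmm. They were taken by name from the 53656 gene rows of each count file, where all 10 were found. Their messenger RNA was measured by RNA-seq in 7 libraries of OT1 cells, which are mouse CD8 T cells with a transgenic receptor for an ovalbumin peptide. All 7 came from cells sorted as CD8+ CD45.1+ out of B16-OVA-GP61 tumours, a melanoma line carrying ovalbumin and the GP61 epitope, a peptide that CD4 T cells recognise. In 4 libraries, called without SMARTA below, SMARTA cells were absent. In the other 3, called with SMARTA, SMARTA cells were present, CD4 T cells whose transgenic receptor recognises GP61. The labels give neither the age of the mice nor the time of sorting, and do not say that each library stems from its own animal. P-values here therefore reflect only how far these libraries differ, part of which may be technical. The title of the series asks how CD4 T cells bear on tumour-specific CD8 T cells, a question this contrast takes up for transcripts.

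Perforin is a secreted protein that inserts into the membrane of a target cell and joins into pores. Granzymes are serine proteases that enter the target through these pores and cut proteins there. Granzyme B cuts after aspartate and activates caspases, the proteases of programmed cell death. Granzymes A and K are tryptases, which cut after lysine or arginine, and granzyme M prefers methionine or leucine. Mice carry a further row of granzyme genes, C to G, beside the gene of granzyme B, whose targets are less well known. Naive CD8 T cells hold little of either protein, and both are made after activation under the control of T-box and Runx transcription factors and of cytokines such as interleukin 2.

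The members lie at 4 places in the genome (GRCm38, as counted by the authors). Prf1 spans chr10:61297833-61304680 and Gzmm chr10:79689020-79695261, both on the plus strand. Gzma (chr13:113093825-113100981) and Gzmk (chr13:113171608-113225908) are neighbours on the minus strand of chromosome 13. The others share the minus strand of chromosome 14 in the order Gzmb (chr14:56258838-56262260), Gzmc (chr14:56231441-56234656), Gzmf (chr14:56205263-56211417), Gzmg (chr14:56156582-56159579), Gzmd (chr14:56129556-56132608) and Gzme (chr14:56117626-56120625). Measured from the start of Gzmb, that of Gzmc lies 27.6 kb and that of Gzme 141.6 kb away. Gzmn, a granzyme gene between Gzmf and Gzmg, had no count in any library.

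Upstream sequence is shown for the genes on which the results turn, Prf1, Gzmb and the neighbours of Gzmb. The Prf1 window was searched for motifs but not aligned to the others. It comes from RefSeq (GRCm38.p6), whose table holds a window from 250 bases before to 50 bases after the start site of each of the 10 genes. Searched on both strands were the letters TGTGGT (Runx core), TGACGT (cyclic AMP response element, or CRE, core), TGANTCA (AP-1), TTCNNNGAA (STAT), GGTGTGA (T-box), GGAAAA (NFAT) and CCGGAA (ETS), along with a core of the interferon response element. Capitals mark Runx, CRE, AP-1, STAT and T-box letters in the following 250 bases before the start sites of Prf1 (chr10:61297586-61297835, plus strand) and Gzmb (chr14:56262335-56262584, minus strand), written 5′ to 3′.
Prf1 upstream: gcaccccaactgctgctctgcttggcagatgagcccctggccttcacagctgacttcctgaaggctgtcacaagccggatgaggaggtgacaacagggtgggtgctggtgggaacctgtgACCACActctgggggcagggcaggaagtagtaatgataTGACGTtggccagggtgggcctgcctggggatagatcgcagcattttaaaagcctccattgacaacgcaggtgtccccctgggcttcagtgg
Gzmb upstream: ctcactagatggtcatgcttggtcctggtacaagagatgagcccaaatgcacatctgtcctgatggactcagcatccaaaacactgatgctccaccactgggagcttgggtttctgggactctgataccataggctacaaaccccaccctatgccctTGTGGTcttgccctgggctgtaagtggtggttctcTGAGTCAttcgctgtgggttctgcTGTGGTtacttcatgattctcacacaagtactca

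The promoters of the 5 genes from Gzmc to Gzmg resembled one another, and that of Gzmb did not resemble them. Over the 300-base windows the 10 pairs among these 5 were 74.6% (Gzmc and Gzmf) to 93.4% (Gzmd and Gzme) identical, whereas Gzmb was 46.8% to 51.7% identical to these 5. The 80 bases that align without a gap among them are shown here, with Runx and CRE letters in capitals. They lie on the minus strand at chr14:56234695-56234774 (Gzmc), chr14:56211470-56211549 (Gzmf), chr14:56159637-56159716 (Gzmg), chr14:56132635-56132714 (Gzmd) and chr14:56120668-56120747 (Gzme).
Gzmc: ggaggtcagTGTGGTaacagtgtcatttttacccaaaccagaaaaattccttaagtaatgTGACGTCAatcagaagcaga
Gzmf: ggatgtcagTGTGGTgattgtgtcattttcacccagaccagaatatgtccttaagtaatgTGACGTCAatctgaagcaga
Gzmg: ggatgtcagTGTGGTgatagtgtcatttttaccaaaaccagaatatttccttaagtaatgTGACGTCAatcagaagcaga
Gzmd: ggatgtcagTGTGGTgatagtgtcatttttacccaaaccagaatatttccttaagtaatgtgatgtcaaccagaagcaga
Gzme: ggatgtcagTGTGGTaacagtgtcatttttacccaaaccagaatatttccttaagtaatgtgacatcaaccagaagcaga

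In Gzmc, Gzmf and Gzmg this stretch held the 8 letters TGACGTCA, the full palindromic CRE. Counted from 1 at its first base, Gzmd differed from Gzmc by C4T and Gzme by G5A. The Runx core was found in 9 of the 10 windows, all but Gzmk, and in 16.8% of all 32851 windows of this length in the table. The CRE core was found in 5 of 10 (Gzmb, Gzmc, Gzmf, Gzmg and Prf1), against 7.51% of all windows. The one in Gzmb lay 4 bases after the start site and is not in the stretch printed. STAT letters were found in Gzmb and Gzmm (8.30% of all windows), AP-1 letters in Gzmb (7.81%) and T-box letters in Gzmk (3.98%). NFAT letters were found in Gzma and Gzmm (23.4% of all windows), the interferon response core in Gzma (3.44%) and ETS letters in Gzmk (14.9%). The windows of the neighbours share ancestry and so are not independent, and a match of letters does not show that a factor binds. The RefSeq window of Gzmk starts inside the longer Gzmk gene of the counting annotation.

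The libraries held 38092722 to 49438357 counts, and 19728 to 22352 genes had at least 1 count. Levels are given in CPM, which are counts scaled to a common library size, here with TMM factors. In this unit 3 counts, the most that a count of 0 allows at 95% confidence, came to 0.0607 to 0.0881 CPM; this floor takes in counting error alone. The summed level of 8 CD8 T cell markers was 7398 to 9617 CPM without and 9623 to 12241 CPM with SMARTA, while Cd4 was at 0.650 to 8.47 CPM. The 7 markers of CD4 and regulatory T cells, Cd4 among them, summed to 523 to 758 CPM without and 400 to 1281 CPM with SMARTA. Of these, Cd40lg (25.2 to 66.4 against 90.6 to 113 CPM) and Zbtb7b (7.63 to 22.4 against 25.9 to 45.4 CPM) were higher with SMARTA, with no overlap. Neither passed (edgeR adjusted p = 0.120 and 0.247), and the groups overlapped in the rest of the list. The part of CD4 T cells in these levels was not tested. One library stood apart in other transcripts. Replicate 1 with SMARTA held 5034 CPM of summed erythroid genes, mostly globin, against 10.0 to 237 CPM in the other 6. The same library was highest in the summed macrophage and monocyte (244 CPM), dendritic cell (920 CPM), B cell (672 CPM) and fibroblast and endothelium markers (221 CPM). The other 6 reached at most 210, 555, 535 and 218 CPM in these. In the sums of the remaining marker lists it was not the highest. In bulk libraries fewer cells that express a gene and less transcript per cell cannot be told apart.

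Across the genome 500 of 15896 tested genes, or 3.15%, passed a Benjamini-Hochberg adjusted p under 0.05 in edgeR's quasi-likelihood test, 241 of them higher with SMARTA (1.52%) and 259 lower (1.63%). Among the members 0 of 9 tested passed, and 6 of the 9 had an unadjusted p under 0.05, against 18.6% of all tested genes. By DESeq2, which called 9.98% of the genes it tested, 4 members passed (Prf1, Gzmd, Gzme and Gzmf), and by limma-voom, which called 3.33%, 0 passed. Gzmg did not reach the count minimum of the test, and Gzmd and Gzme reached it only through the libraries without SMARTA. The direction and size of the tested difference of those 2 genes are therefore not independent of the filter. The CPM of the groups did not overlap in 3 of the 9 (Prf1, Gzmd and Gzme), all lower with SMARTA. Over all tested genes the groups did not overlap in 19.2%, and were lower with SMARTA in 10.5%. The members' log2 fold changes, with minus without SMARTA, ran from −4.47 to 0.998.

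**Figure D1:**
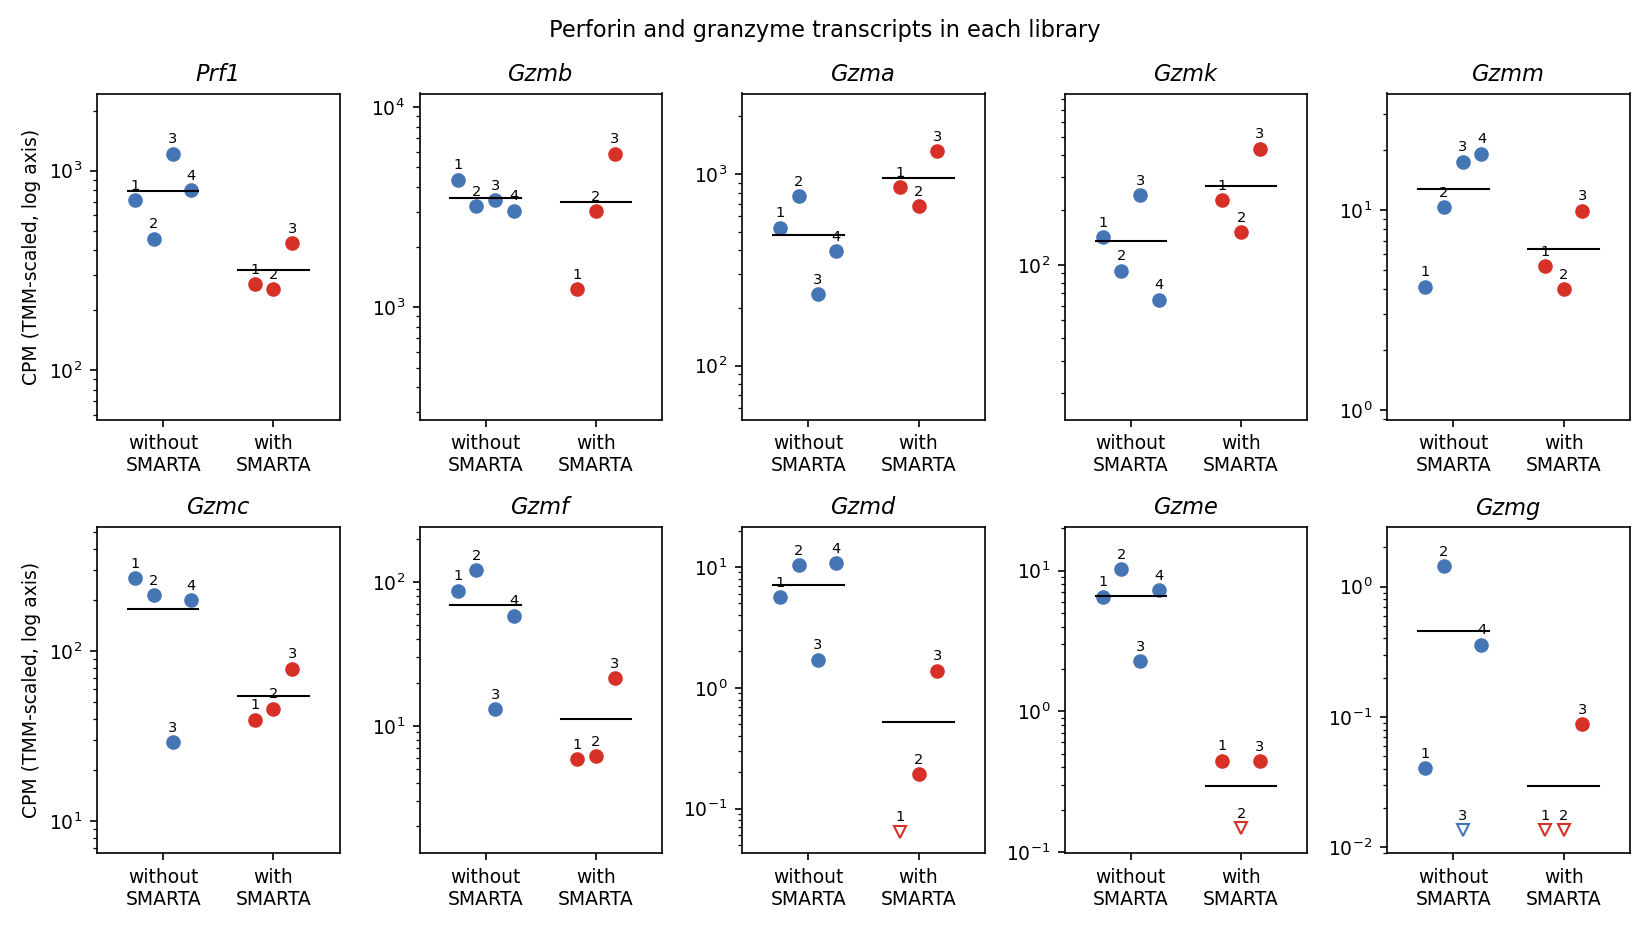
Level of each member in each of the 7 libraries, in CPM on a log axis, without SMARTA (replicates 1 to 4) and with SMARTA (replicates 1 to 3); points are libraries with their replicate number, open triangles are libraries with no count and the bar is the group mean. Prf1 lies between 457 and 1217 CPM without and between 255 and 434 CPM with SMARTA, while the 3 Gzmb values with SMARTA reach below and above all 4 without.

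Prf1, the pore former, was at 709, 457, 1217 and 797 CPM in replicates 1 to 4 without SMARTA and at 269, 255 and 434 CPM in replicates 1 to 3 with SMARTA. All 3 libraries with SMARTA lay below all 4 others, and the nearest values were 434 and 457 CPM. The means were 795 ± 316 CPM (SD, n = 4) and 319 ± 99.5 CPM (SD, n = 3), a ratio of 2.49. The log2 fold change was −1.32 ± 0.35 (SE), with an approximate 95% interval for a single gene of −2.10 to −0.53, and it did not pass (edgeR adjusted p = 0.0794). The result lay near the threshold, and 5 of 14 other settings called it. The 14 include the main fit at an adjusted p under 0.01, which could not call it, and a repeat of the fit without replicate 4 without SMARTA. The edgeR adjusted p was 0.0445 for library totals in place of TMM, 0.0422 without a count filter and 0.0226 with a stricter filter. The adjusted p was 0.00843 in DESeq2 and 0.0183 in limma-voom with quality weights. These 5 fits called 3.53%, 1.9%, 8.97%, 9.98% and 9.67% of all genes they tested. With 1 library left out at a time Prf1 was called in none of the 7 fits, and the fold change stayed between −1.62 and −1.04. Of all genes tested these fits called 0.423%, 2.56%, 0.639% and 0.11% without replicates 1 to 4 of the group without SMARTA. They called 5.41%, 0.217% and 0.312% without replicates 1 to 3 of the group with SMARTA, against 3.15% with all libraries.

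The markers of natural killer cells, which also hold perforin and granzyme A, were mixed. Without the members in that list their sum was 142 to 268 CPM without SMARTA and 57.2 to 145 CPM with SMARTA, and 145 CPM was reached in replicate 1 with SMARTA. The receptor gene Ncr1, which defines these cells, was at 0 to 0.790 CPM without SMARTA and had 0 counts in all 3 libraries with SMARTA, and Klra4 had 0 counts in all 7. The largest of the list besides the members were 2 lectin-like receptor genes. Klre1 was at 61.7 to 182 CPM without and 13.9 to 39.6 CPM with SMARTA, with no overlap, lower with SMARTA as Prf1 was, and did not pass (edgeR adjusted p = 0.0699). Klrb1c was at 22.4 to 76.8 CPM without and 15.1 to 106 CPM with SMARTA, and overlapped. The part of these cells in the level of Prf1 was not tested.

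Gzmb was the most abundant granzyme in every library and did not differ between the groups by more than their spread. It was at 4337, 3193, 3428 and 3040 CPM without SMARTA and at 1235, 3014 and 5848 CPM with SMARTA. The lowest and the highest value of all 7 were both with SMARTA, in replicates 1 and 3. The means were 3499 ± 581 CPM (SD, n = 4) and 3365 ± 2326 CPM (SD, n = 3), with a log2 fold change of −0.06 ± 0.43 (SE; 95% interval −1.04 to 0.92; edgeR adjusted p = 0.965). The interval leaves room for a change of 2-fold in the downward direction and nearly as much upward. Without replicate 1 with SMARTA, the library rich in erythroid transcripts, the log2 fold change was 0.31, and without replicate 3 with SMARTA it was −0.73.

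Per kilobase of counted exon, the scale on which genes can be compared with each other, Gzmb ranked from the 6th to the 8th highest of all genes in the 4 libraries without SMARTA. It ranked 48th, 8th and 5th in replicates 1, 2 and 3 with SMARTA. Mean levels without SMARTA were 2437 ± 404 CPM per kb for Gzmb, 476 ± 221 for Gzma, 308 ± 122 for Prf1, 199 ± 115 for Gzmc, 96.9 ± 55.4 for Gzmk and 75.9 ± 49.6 for Gzmf (SD, n = 4). Gzmm, Gzmd and Gzme followed at 8.64, 7.37 and 7.18 CPM per kb and Gzmg at 0.504. In this order the ranges over libraries of each neighbouring pair overlapped, except that Gzmb lay above Gzma, Gzmf above Gzmm and Gzme above Gzmg in all 4 libraries. With SMARTA the means were 2344 ± 1620 for Gzmb, 943 ± 325 for Gzma, 194 ± 104 for Gzmk, 124 ± 38.5 for Prf1, 61.3 ± 23.6 for Gzmc and 12.1 ± 9.74 for Gzmf (SD, n = 3). Within each library with SMARTA Gzmk stood above Prf1 (163 and 104, 108 and 98.5, 310 and 168 CPM per kb in replicates 1 to 3). Within each library without SMARTA Gzmk stood below Prf1. No test was made on this order. Prf1 per 100 units of Gzmb on this scale was 9.08, 7.96, 19.7 and 14.6 without SMARTA and 12.1, 4.70 and 4.12 with SMARTA. The ratio therefore overlapped between the groups, through replicate 1 with SMARTA, where Gzmb was low.

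The row of granzyme genes beyond Gzmb was lower in mean with SMARTA in each member, and none passed the test. Gzmc was at 268, 213, 29.3 and 199.5 CPM without and at 39.5, 46.0 and 78.9 CPM with SMARTA. Replicate 3 without SMARTA was the lowest of all 7 libraries, and the other 3 of its group lay above every library with SMARTA. The means were 177 ± 103 and 54.8 ± 21.1 CPM (SD, n = 4 and 3), with a log2 fold change of −1.69 ± 0.64 (SE; edgeR adjusted p = 0.201). Without that replicate 3 the fit called Gzmc (log2 fold change −2.05, edgeR adjusted p = 0.0464), in a fit that called 98 genes or 0.639% of those tested.

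Gzmf had the same low library. It was at 86.8, 121, 13.1 and 58.4 CPM without and at 5.85, 6.12 and 21.5 CPM with SMARTA. The groups overlapped only through replicate 3 without SMARTA, at 13.1 CPM, and replicate 3 with SMARTA, at 21.5 CPM. The log2 fold change was −2.65 ± 0.78 (SE; 95% interval −4.42 to −0.87; edgeR adjusted p = 0.109). With the stricter filter the adjusted p was 0.0411 and in DESeq2 0.00255.

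Gzmd and Gzme, the outermost of the row, were rare transcripts. Gzmd had 278, 478, 84 and 508 counts without SMARTA, or 5.63, 10.4, 1.71 and 10.7 CPM, and 0, 8 and 47 counts with SMARTA, or up to 1.38 CPM. The groups did not overlap, with 1.71 CPM as the lowest value without and 1.38 CPM as the highest with SMARTA. Its log2 fold change was −3.78 ± 1.29 (SE; edgeR adjusted p = 0.162), and DESeq2 gave an adjusted p of 0.00704. Gzme had 323, 470, 112 and 345 counts without and 21, 0 and 15 counts with SMARTA, which is 2.27 to 10.2 CPM against 0 to 0.445 CPM. Its log2 fold change of −4.47 ± 1.06 (SE; 95% interval −6.87 to −2.06; edgeR adjusted p = 0.0597) was the most negative among the members. It passed in 3 of 13 other settings, with edgeR adjusted p of 0.0340 without a filter and 0.0163 with the stricter filter, and an adjusted p of 5.97e-06 in DESeq2. Gzmg had 2, 66, 0 and 17 counts without SMARTA and 0, 0 and 3 counts with SMARTA, too few to test.

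**Figure D2:**
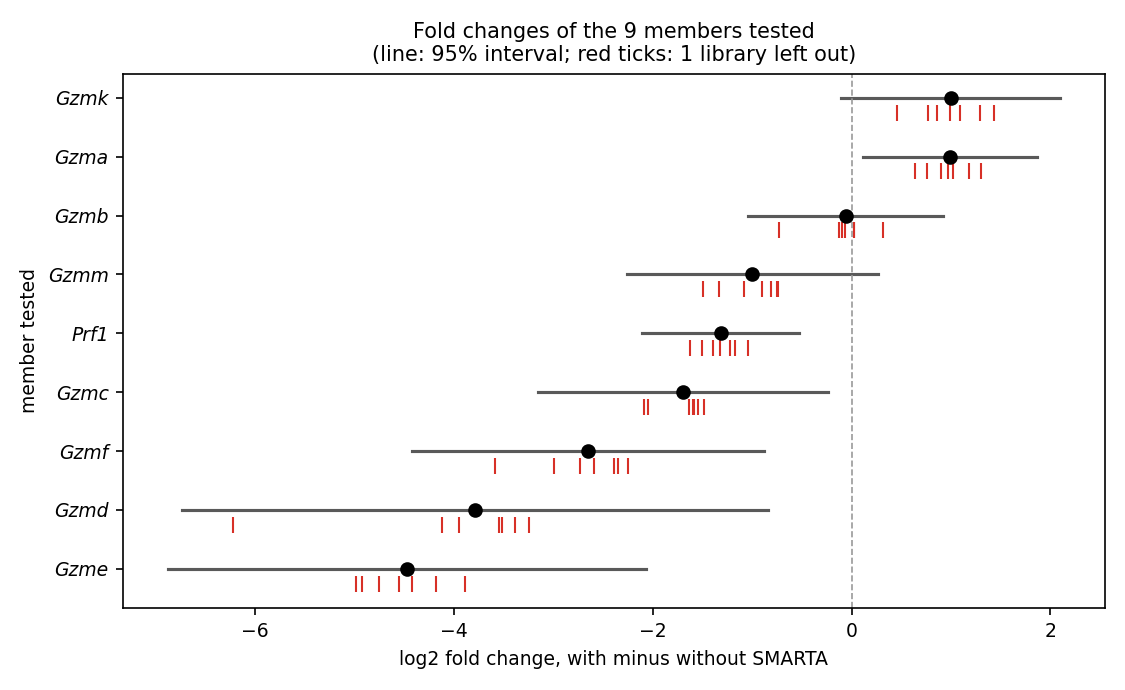
Log2 fold change (with minus without SMARTA) of the 9 tested members, with the approximate 95% interval as a line and the values of the 7 fits that leave out 1 library as red ticks. Prf1 at −1.32 has a narrower interval than Gzmd at −3.78 and Gzme at −4.47, and Gzma lies at 0.99 and Gzmk at 0.998.

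Reads of these neighbours are partly lost to the counting, since a read that fits several genes was left out. In coding sequence Gzmd and Gzme were 93.5% identical, Gzme and Gzmg 89.5% and Gzmf and Gzmg 87.5%, whereas Gzmb and Gzmc were 76.7% and Gzma and Gzmk 58.2% identical. Of all 50-base words of the transcript, the length of 1 read, 21.9% of Gzmd, 20.6% of Gzme, 19.8% of Gzmg and 19.4% of Gzmf also occurred in another gene. The share was 4.14% for Gzmc and 0 for Gzmb, Gzma, Gzmk, Gzmm and Prf1. One such word is shown as an example; it is coding bases 11 to 60 of Gzmd and is found unchanged in Gzmc and Gzmg.
Shared word: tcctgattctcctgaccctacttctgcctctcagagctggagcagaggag

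The levels of Gzmd to Gzmg may thus be underestimates and are uncertain between each other. Summed to 1 row, these 4 genes were at 99.0, 143, 17.1 and 76.7 CPM without and at 6.29, 6.31 and 23.4 CPM with SMARTA, a log2 fold change of −2.81 ± 0.77 (SE). The lowest value without SMARTA again lay below the highest with SMARTA.

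Along the chromosome the log2 fold change was more negative from each tested gene of the row to the next, at −0.06 for Gzmb, −1.69 for Gzmc, −2.65 for Gzmf, −3.78 for Gzmd and −4.47 for Gzme. This order is a description, since the difference between neighbours was not tested. Gzmd and Gzme met the count minimum only through the libraries without SMARTA, so their values at the end of the order are not independent of the filter. Gzmg, between Gzmf and Gzmd, was too rare to test and has no place in the order. The order was kept in 6 of 7 fits that leave out a library, all but that without replicate 3 with SMARTA, and in 10 of 12 other fits. The 12 include a repeat of the fit without replicate 4 without SMARTA. All these fits reuse the same counts and so lend the order no separate support.

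**Figure D3:**
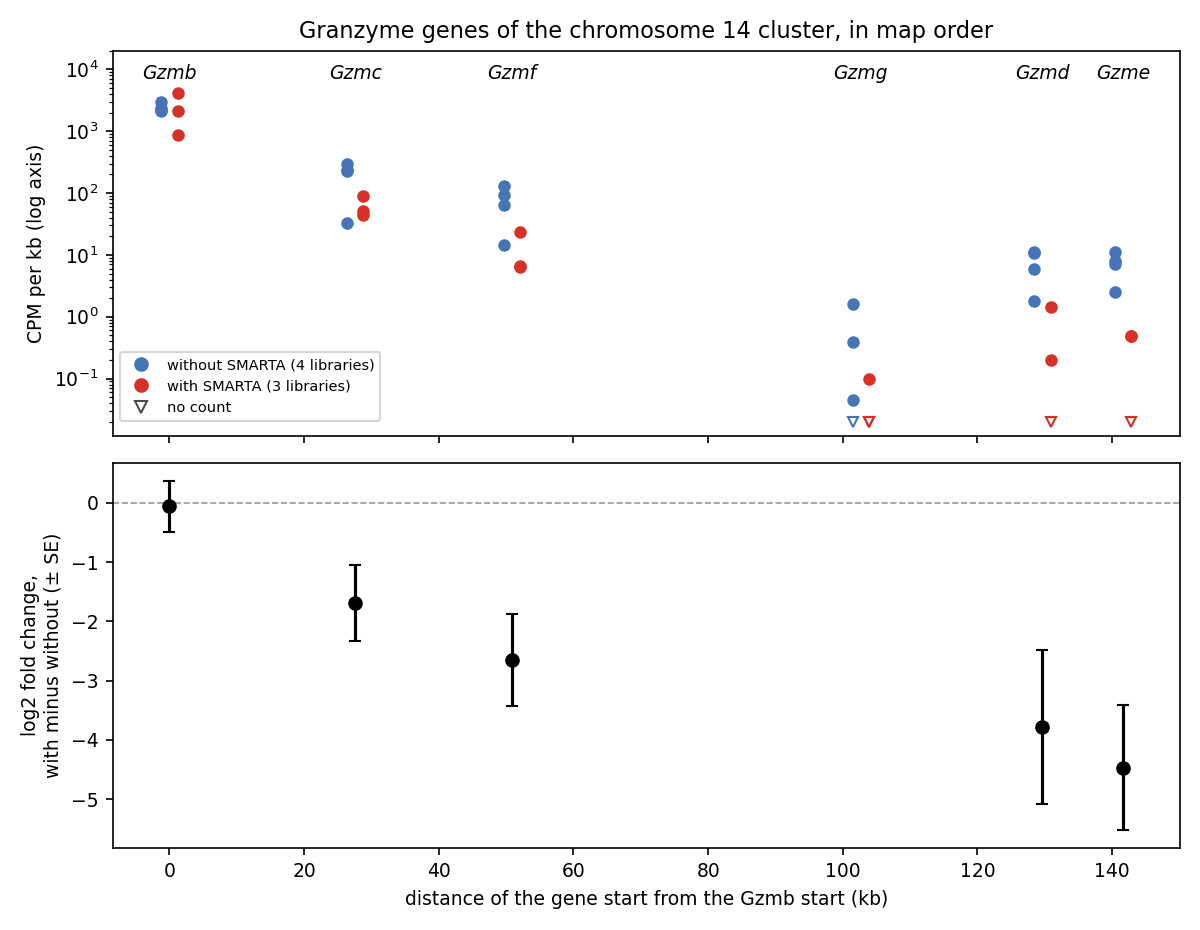
Granzyme genes of chromosome 14 by the distance of their start from that of Gzmb (horizontal axis, kb); the upper panel gives the level in each library in CPM per kb on a log axis (open triangles: no count) and the lower one the log2 fold change with its standard error for the tested genes. The fold change runs from −0.06 at Gzmb to −4.47 at Gzme, 141.6 kb away. Gzmd and Gzme passed the count minimum only through the group where they are high.

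Gzmc to Gzmg together made up 367, 355, 46.4 and 276 CPM without SMARTA and 45.8, 52.4 and 102 CPM with SMARTA. The 4 libraries without SMARTA covered nearly the whole range of all 7. Mast cells are known to carry proteases coded beside these genes, and their marker Kit was among the genes most like Gzmc and Gzmf. Kit was at 39.8, 36.5, 12.1 and 46.5 CPM without and at 2.92, 8.40 and 19.8 CPM with SMARTA. The summed mast cell and basophil list was 13.97 to 56.3 CPM without and 10.6 to 24.0 CPM with SMARTA. Kit was the largest gene of that sum in every library but replicate 1 with SMARTA, where Cpa3 (3.62 CPM) and Hdc (3.14 CPM) exceeded its 2.92 CPM. The defining markers Fcer1a and Mcpt4 had 0 counts in all 7 libraries, and Cpa3 was at 0.196 to 3.62 CPM. Hdc was at 7.94, 19.6, 0.772 and 2.95 CPM without and at 3.14, 1.59 and 3.70 CPM with SMARTA, and overlapped. The remaining genes of the list reached at most 0.551 CPM in any library. The part of mast cells in the levels of Gzmc to Gzmg was not tested.

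The tryptases of chromosome 13 had the opposite sign. Gzma was at 523, 763, 235 and 395 CPM without SMARTA and at 852, 681 and 1313 CPM with SMARTA. Replicates 1 and 3 with SMARTA lay above all 4 others, and replicate 2 lay below the 763 CPM of replicate 2 without SMARTA. The means were 479 ± 223 and 949 ± 327 CPM (SD, n = 4 and 3), with a log2 fold change of 0.99 ± 0.38 (SE; 95% interval 0.11 to 1.86; edgeR adjusted p = 0.214). Gzmk was at 141, 93.0, 240 and 64.5 CPM without and at 226, 150 and 430 CPM with SMARTA, with 1 library with SMARTA above all others. Its log2 fold change was 0.998 ± 0.483 (SE; edgeR adjusted p = 0.318). Neither passed, and neither was called in any of 14 other settings or with 1 library left out. The fits with 1 library left out called 0.11% to 5.41% of all genes they tested.

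Esm1, which codes for the secreted proteoglycan endocan, lies at chr13:113209659-113218098 on the plus strand, within an intron of Gzmk as annotated and with no shared exon. It rose from 12.3 ± 5.69 to 73.9 ± 22.8 CPM (SD, n = 4 and 3; log2 fold change 2.59 ± 0.40, SE; edgeR adjusted p = 0.0195), with all 3 libraries with SMARTA above all 4 without. The call was lost, with edgeR adjusted p of 0.0542 to 0.0725, when replicate 1, 3 or 4 without SMARTA or replicate 2 or 3 with SMARTA was left out. Those fits called 0.11% to 0.639% of all genes they tested. The counting did not use strand, so reads of unspliced Gzmk RNA over Esm1 exons could not be told from Esm1 reads.

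Gamma delta T cells are another source of granzyme A. Their 5-gene list summed to 179 to 228 CPM without and 392 to 422 CPM with SMARTA, almost all of it Trdc, the delta chain constant region. Trdc was at 164 to 193 CPM without and 366 to 389 CPM with SMARTA, with no overlap, and passed (edgeR adjusted p = 0.0169). Without Trdc the sums of the groups overlapped (10.9 to 34.9 against 25.9 to 40.2 CPM). The part of these cells in the level of Gzma was not tested.

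Gzmm, the granzyme with a preference for methionine, was low throughout. It was at 4.13, 10.3, 17.4 and 19.1 CPM without and at 5.21, 4.02 and 9.90 CPM with SMARTA. The groups overlapped widely, and the log2 fold change of −0.997 ± 0.555 (SE; edgeR adjusted p = 0.393) did not pass.

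The makeup of the granzyme transcripts was taken as each gene's share of the summed CPM per kilobase of all 9. Gzmb held 74.5%, 64.5%, 83.6% and 73.6% without SMARTA and 44.7%, 71.3% and 70.1% with SMARTA. Gzma and Gzmk together held 15.3%, 23.9%, 14.2% and 15.3% without and 52.5%, 26.7% and 27.8% with SMARTA, so that all 3 libraries with SMARTA lay above the 4 others. Gzmc to Gzmg held 10.1%, 11.4%, 1.79% and 10.6% without and 2.65%, 1.98% and 1.96% with SMARTA, and here replicate 3 without SMARTA fell below all 3 with SMARTA. The summed level of the 9 granzymes itself overlapped, at 3794 to 5373 CPM without and at 2364, 3901 and 7704 CPM with SMARTA. Shares of a sum depend on each other, and no test was made on them.

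**Figure D4:**
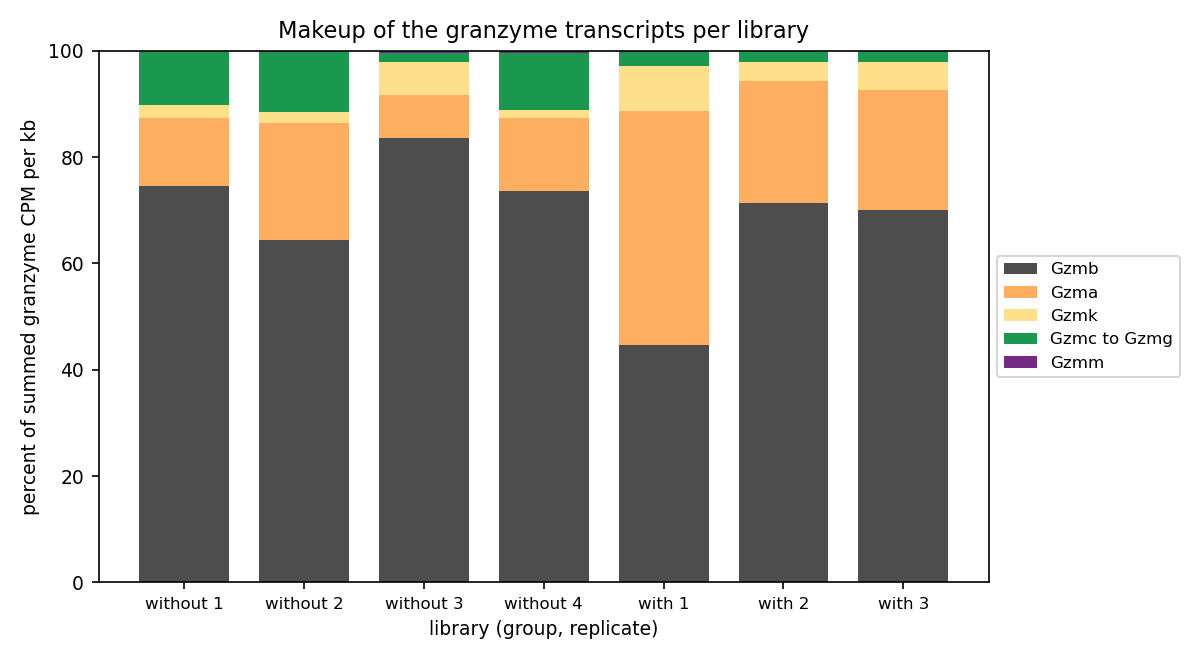
Percent of the summed granzyme CPM per kilobase held by Gzmb, Gzma, Gzmk, Gzmm and by Gzmc to Gzmg together, 1 stacked bar for each library, starting at 0. Gzma and Gzmk take 52.5% in replicate 1 with SMARTA, where Gzmb takes 44.7%, and Gzmc to Gzmg take 10.1% to 11.4% in replicates 1, 2 and 4 without SMARTA and 1.79% to 2.65% in the others.

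Replicate 3 without SMARTA differed from its group in a way that set the members against each other. It held the lowest Gzma, Gzmc, Gzmd, Gzme and Gzmf of the 4 libraries and the highest Prf1 and Gzmk. With SMARTA, replicate 3 was the highest of its group in 8 of the 9 tested members, all but Gzme. Leaving this library out took the log2 fold change of Gzma from 0.99 to 0.63 and that of Gzmk from 0.998 to 0.46.

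The genes whose pattern over the 7 libraries was most like that of each member were named by the smallest root mean square difference of centred log2 CPM among the 8254 genes whose mean log2 CPM was 3 or more. Prf1 was closest to Fanca (0.22), Fgr (0.24) and Slc37a2 (0.25); Fanca is a gene of the Fanconi anaemia DNA repair pathway. Gzmb was closest to Cep295 (0.17), Usp34 (0.17) and Rock2 (0.20), and Gzma to Rgs2 (0.24), Zfp658 (0.31) and RP23-353K11.3 (0.31). Gzmk was closest to Tmem50b (0.36), Plod1 (0.37) and Myadm (0.38), and Gzmm to Vcl (0.42), Tnf (0.45) and Igf2bp3 (0.46). Npm1 (0.70) and Kit (0.70) were among the genes closest to Gzmc, and Gzmf was closest to Kit (0.69), Gzmc (0.71) and the histone gene Hist1h1b (0.89). Gzmd was closest to the mitosis genes Cenpf (1.17), Shcbp1 (1.18) and Kif2c (1.18), and Gzme to the chemokine Ccl9 (1.03), the chemokine receptor Ccr8 (1.26) and Tg (1.33). For Gzmd and Gzme the likeness was loose, at distances well above those of the abundant members. All values share the same 7 libraries and carry no test.

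Genes that act before and after the members were followed in lists by role. Of 19 tested genes of granule storage and protease maturation 1 rose and none fell, with a median log2 fold change of −0.10, against −0.00 over all tested genes. The one that rose was Ctsw, a cysteine protease of killer lymphocytes known as cathepsin W. It was at 1404, 1339, 1232 and 1298 CPM without and at 2602, 1836 and 2496 CPM with SMARTA, with no overlap (log2 fold change 0.81 ± 0.17, SE; edgeR adjusted p = 0.0424). It was called in none of the 7 fits that leave out a library, with edgeR adjusted p of 0.0505 to 0.144. These fits called 0.11% to 5.41% of all genes they tested. Others of this list did not pass, among them the granule proteoglycan Srgn (log2 fold change −0.15), the granzyme-activating protease Ctsc (0.03) and the granule membrane protein Nkg7 (−0.08).

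Of 23 tested genes of granule docking and release none passed, with a median log2 fold change of 0.09. The smallest p-values belonged to Dock2, an activator of the actin regulator Rac, at 695 ± 108 CPM without SMARTA (SD, n = 4; log2 fold change 0.81, edgeR adjusted p = 0.0879), and Sytl2, a partner of the granule-tethering protein Rab27a (1.04, edgeR adjusted p = 0.0954). Rab27a itself was at −0.21.

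Of 7 tested serpins, the inhibitors of serine proteases, 1 fell and none rose, with a median log2 fold change of −1.05. Serpinb9b, a close relative of the granzyme B inhibitor Serpinb9, met the count minimum only through the libraries without SMARTA. The direction and size of its tested difference are therefore not independent of the filter. It was at 191, 110, 39.4 and 162 CPM without SMARTA and at 0, 1.44 and 0.558 CPM with SMARTA. The highest library with SMARTA, at 1.44 CPM, lay below the lowest without, at 39.4 CPM, and the log2 fold change was −7.56 ± 1.18 (SE; edgeR adjusted p = 0.0203). The call was lost, with edgeR adjusted p of 0.0614 to 0.0846, when replicate 1 or 4 without SMARTA or replicate 2 or 3 with SMARTA was left out. Those fits called 0.11% to 0.423% of all genes they tested. Serpinb9 was at 1175, 1054, 812 and 943 CPM without and at 295, 429 and 1487 CPM with SMARTA and did not pass (edgeR adjusted p = 0.712). Like Gzmb, Serpinb9 was lowest in replicate 1 and highest in replicate 3 with SMARTA.

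Of 6 other killing molecules none passed, with a median log2 fold change of 0.40. Ifng, the gene of interferon gamma, was at 665, 219, 791 and 962 CPM without and at 24.3, 79.5 and 153 CPM with SMARTA. The groups did not overlap, and the log2 fold change of −2.95 ± 0.69 (SE; edgeR adjusted p = 0.0587) lay just outside the threshold. The death ligand Tnfsf10, or TRAIL, followed at 0.84 (edgeR adjusted p = 0.213).

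Of 28 tested regulators of effector genes 1 rose and 3 fell, with a median log2 fold change of 0.00. Id2, an inhibitor of E proteins that CD8 effector cells need, rose from 1212 ± 108 to 2598 ± 548 CPM (SD, n = 4 and 3; log2 fold change 1.10 ± 0.18, SE; edgeR adjusted p = 0.0236). Transcripts of the interferon regulatory factors Irf8 (log2 fold change −3.08, edgeR adjusted p = 0.0282) and Irf4 (−2.21, edgeR adjusted p = 0.0424) and the transcription factor Myb (−2.34, edgeR adjusted p = 0.0429) fell. Irf8 was at 174 to 724 CPM without and 27.2 to 64.9 CPM with SMARTA, and Irf4 at 111 to 251 against 17.7 to 54.8 CPM. The T-box factor genes Tbx21 (log2 fold change −0.03, edgeR adjusted p = 0.985) and Eomes (−1.33, edgeR adjusted p = 0.336) and the Runx factor gene Runx3 (0.37, edgeR adjusted p = 0.51) did not pass. None of the 4 calls held in the fits without replicate 3 or 4 without SMARTA or without replicate 2 or 3 with SMARTA (edgeR adjusted p of 0.0518 to 0.135). Those fits called 0.11% to 0.639% of all genes they tested. Without replicate 1 without SMARTA only Irf8 was called, without replicate 2 of that group all but Myb, and without replicate 1 with SMARTA all 4. Dendritic and B cells also express Irf8, and the summed markers of both overlapped between the groups (dendritic cells 241 to 555 against 278 to 920 CPM, B cells 296 to 535 against 293 to 672 CPM). The upper ends with SMARTA were both in replicate 1. Replicates 2 and 3 with SMARTA were at 278 and 315 CPM for dendritic cells and at 293 and 324 CPM for B cells. The part of these cells in the level of Irf8 was not tested.

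Of 13 tested cytokine receptor genes none passed, with a median log2 fold change of 0.36. The nearest were the interleukin 7 receptor Il7r (log2 fold change 2.26, edgeR adjusted p = 0.0578) and the common gamma chain Il2rg (0.62, edgeR adjusted p = 0.0724). Il7r was at 70.8 to 270.1 CPM without and 335 to 1052 CPM with SMARTA, with no overlap. Of 14 genes beside the granzymes on the 3 chromosomes, most of them proteases of mast cells and neutrophils, 2 were tested, Esm1 and Cfd, and Esm1 was the one called.

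**Figure D5:**
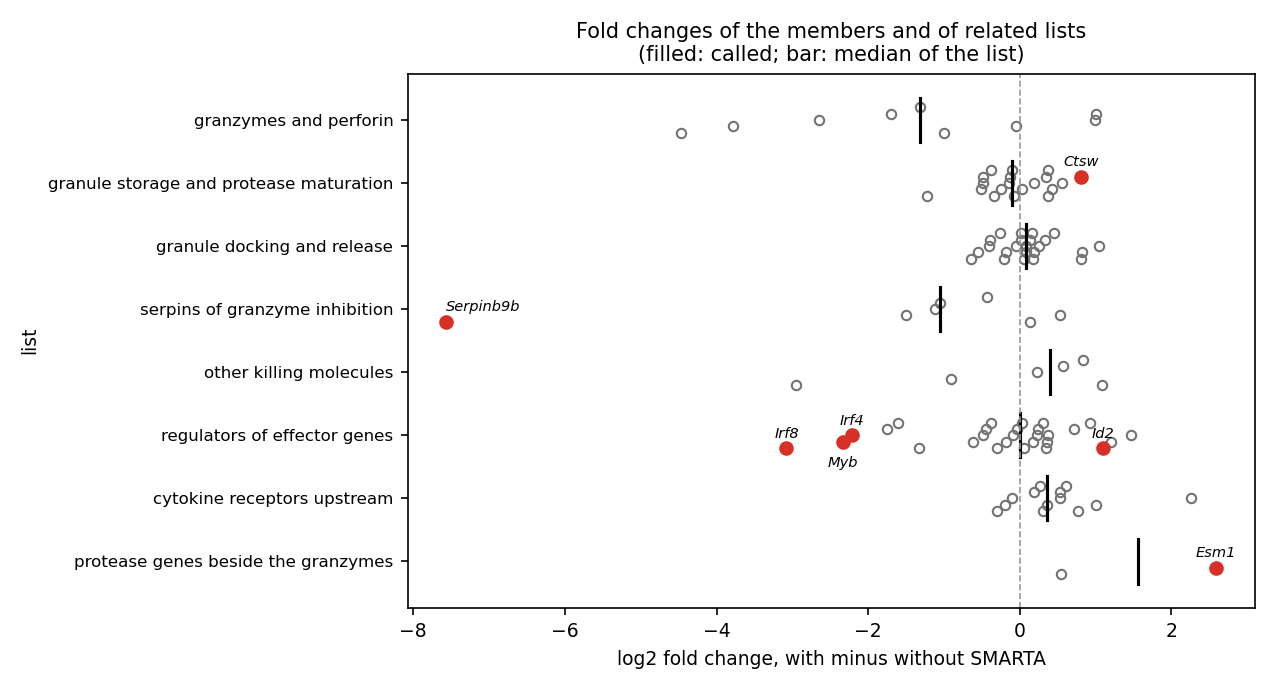
Log2 fold changes (with minus without SMARTA) of the tested genes of each list, 1 point for each gene, filled where edgeR's adjusted p was under 0.05, with the list median as a bar. The bar of the members, at −1.32, is a description, since Gzmd and Gzme passed the count minimum only through the group where they are high.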

How the data were processed

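Cells were collected in Trizol, per the labels' protocols, and RNA was amplified with SMART-seq V4 before paired-end sequencing of 50 bases from each end. Per the submitters' processing notes STAR 2.6.0c and featureCounts 1.6.2 were used with GRCm38.p6. The authors counted pairs of reads over GENCODE M17 exons, grouped by gene name and without strand, per the file headers, leaving out reads that match several places or genes, so the deposited values are raw counts. Whether runs or samples were merged before counting is not given in the sources used here beyond a file header that names a merged alignment.

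From the counts, edgeR 4.0.16 (R 4.3.3) kept genes by filterByExpr (minimum count 10, minimum total 15), scaled libraries by TMM and compared the groups, 4 against 3 libraries, in a robust two-sided quasi-likelihood fit with no covariate. P-values were Benjamini-Hochberg adjusted over all 15896 genes and called under 0.05. Standard errors are the log2 fold change divided by the root of F. Log2 CPM used a prior count of 2. Alternatives were other scalings, no filter, a stricter filter (3 or more libraries with a CPM of 5 or more), DESeq2 1.42.0, limma 3.58.1 (voom with and without quality weights), no robust estimation, replicate blocks, summed Gzmd to Gzmg and each library left out. The fits were tested on simulated counts.

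Chi-square per degree of freedom between libraries of a group was 83.6 to 399, well beyond sampling noise, and none was taken as a duplicate. Promoters came from RefSeq and transcript words from GENCODE M21 transcripts (GRCm38). The members and lists were chosen with earlier results of these data known. Named are all members, called list genes (at most 4 a list, or the 2 with the smallest p), the 3 genes most like each member (1 of them is not reported here) and the largest gene of a marker sum. Srgn, Ctsc, Nkg7, Rab27a, Serpinb9, Tbx21, Eomes, Runx3, Cfd, Cd4, Cd40lg, Zbtb7b, Ncr1, Klra4, Fcer1a, Mcpt4, Cpa3, Hdc, Klre1, Klrb1c and Gzmn are named outside this rule, after their values were seen.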

Additional observations from a re-analysis of the deposited data

Results flagged for a closer look

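Of 60 sets of 4 libraries without SMARTA examined, 2 held a library whose gap to its nearest neighbour took up more of the whole range than Dixon's critical value for 4 values allows. Chance flags about 1 in 20 such groups. Id2 was at 1052 CPM in replicate 4 without SMARTA, below the other 3 at 1254 to 1285 CPM. Hist1h1b, the histone gene near Gzmf in its pattern over libraries, was at 38.29 CPM in replicate 1 without SMARTA, above the other 3 at 13.3 to 17.1 CPM. None of the members was among the 2.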

How the results depend on the processing

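Among 186 values of the 9 tested members under other settings, 171 kept their direction and side of the threshold, 12 passed it and 3 changed sign. Those that passed were Prf1 with library totals (log2 fold change −1.47), no filter (−1.33), the stricter filter (−1.40), DESeq2 (−1.30) and voom with quality weights (−1.44), Gzme with no filter (−4.53), the stricter filter (−4.58) and DESeq2 (−4.48), Gzmf with the stricter filter (−2.77) and DESeq2 (−2.65), Gzmd in DESeq2 (−3.77), and Gzmc without replicate 3 without SMARTA (−2.05). Gzmb, which was not called, changed sign without replicate 1 without SMARTA (0.03), without replicate 1 with SMARTA (0.31) and without replicate 2 with SMARTA (0.02). The cause was not tested. For each of the 9 members the 171 include the main value at an adjusted p under 0.01, which could not change. They also count the fit without replicate 4 without SMARTA again, as the same 6 libraries without a replicate block. With 1 library left out, ranges were −0.73 to 0.31 for Gzmb, −2.09 to −1.48 for Gzmc and −1.62 to −1.04 for Prf1. Over all genes 842 were called with the stricter filter, 1764 in DESeq2, 1537 by voom with quality weights and 7 at an adjusted p under 0.01, against 500, and 17 to 907 with 1 library left out (17 without replicate 4 without SMARTA, 37 without replicate 2 with SMARTA and 907 without replicate 1 with SMARTA). Library totals moved the median of all genes to −0.16 and gave 163 higher and 398 lower calls against 241 and 259.

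Lists called 0 to 1 members, 0 to 0 storage genes, 0 to 2 docking genes, 0 to 1 serpins, 0 to 2 other killing molecules, 0 to 4 regulators, 0 to 3 receptors and 0 to 1 neighbouring genes with 1 library left out. As log2 ratios of group means, the natural killer list moved from −0.098 to −1.25 without its largest gene, the member Gzma, which leaves the member Prf1 in the sum. It moved to −0.99 without the members, an alternative chosen after seeing the data. The gamma delta list moved from 1.04 to 0.71 and the fibroblast and endothelium list from 0.89 to 0.34 without their largest genes.

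Replicate numbers of the titles and of the files differ and did not pair the libraries (correlations −0.139, 0.0263 and −0.274 for titles, −0.0862, −0.0623 and −0.044 for files). With the number as a replicate block 0 genes were called by edgeR in either numbering (1589 and 1798 at an unadjusted p under 0.05). Without the block, the same 6 libraries of the title numbers gave 17. This comparison was added after seeing the data and repeats the planned fit without replicate 4 without SMARTA. The file number block tested 15357 genes, as did the fit without replicate 1 without SMARTA, which has no block and called 65.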
